A study of Rattus norvegicus with 24 samples.

Results

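Tubb5, Stmn1 and Dynll1 are 3 genes of the microtubule system among 1422 measured genes with a single symbol on a rat cDNA array. They were chosen by symbol, and with their values in these samples already known, because Tubb5 and Dynll1 had stood out in single strain and time groups and Stmn1 lay far from 0 in SS rats at 3 days. Their own values are therefore given as a description with no test. The table lists 6 probe identifiers for them, of which 3 held values, 1 for each gene, and these had a value on all 24 arrays.

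Each of the 24 arrays compared the total kidney RNA of 2 rats of the same strain, labelled with Cy5 and Cy3, in a comparison that the titles call HS and LS, short in this field for a high-salt and a low-salt diet. Which rat of a pair had which diet is not stated. The strains were the Dahl salt-sensitive SS rat, whose blood pressure rises on a high-salt diet, and the consomic SS-13BN/Mcw, in which a Brown Norway chromosome 13 replaces that of an otherwise SS genome. The groups were SS at 3 days, SS overnight, SS-13BN/Mcw at 3 days and SS-13BN/Mcw overnight, each with 3 rat pairs on 6 arrays, since every pair was hybridised in both dye orientations. No transgene or added agent is named in the labels, and neither is the age of the rats. All 4 groups share the SS background outside chromosome 13.

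Values are log ratios in the deposited units, whose log base and numerator are not stated, so no folds and no direction with salt are given, and a gene is placed only above 0 (positive) or below it (negative). Arrays were centred on their median, so 0 is the middle of the measured probes, and the arrays of a pair were averaged. In whole kidney RNA, fewer cells of a type and less RNA per cell cannot be told apart. An array held 877 to 1412 probe values, and precision is limited by the number of rat pairs, 3 in each group. A ratio carries no level, so the labelled tissue could be checked only by which kidney genes gave values, which 14 of 18 proximal tubule markers and 6 of 9 thick ascending limb and distal tubule markers did. The titles also hold a number ahead of the rat names, whose meaning is not stated. In each SS group these numbers formed a run of their own, while those of the 2 SS-13BN/Mcw groups overlapped. Whatever the number stands for cannot be told apart from group wherever an SS group is compared.

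Microtubules are filaments of alpha- and beta-tubulin along which cells move vesicles and organelles and with which they separate chromosomes at division. Tubb5 encodes a beta-tubulin found in most cell types. Stmn1 encodes stathmin, which binds free tubulin dimers, promotes the shortening of microtubules and is abundant in dividing and immature cells. Dynll1 encodes a light chain of cytoplasmic dynein, the motor that walks toward microtubule minus ends, and this small protein also binds many partners outside the motor, among them neuronal nitric oxide synthase. In kidney tubule cells microtubules guide transporters and water channels to the correct face of the cell.

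The promoters of the 3 genes are shown because their transcripts are what the array compared and their profiles over the groups are set side by side below. The sequences are those of RefSeq on build GRCr8, 250 bases before to 50 after the gene start, all on the plus strand, at chr20:2917327-2917626 for Tubb5, chr5:151964929-151965228 for Stmn1 and chr12:46972827-46973126 for Dynll1. None lies on chromosome 13, which differs between the strains. Capitals mark every match to CCAAT (the CCAAT box), GGGCGG (the GC box) or TATAAA (the TATA box) on either strand.
Tubb5: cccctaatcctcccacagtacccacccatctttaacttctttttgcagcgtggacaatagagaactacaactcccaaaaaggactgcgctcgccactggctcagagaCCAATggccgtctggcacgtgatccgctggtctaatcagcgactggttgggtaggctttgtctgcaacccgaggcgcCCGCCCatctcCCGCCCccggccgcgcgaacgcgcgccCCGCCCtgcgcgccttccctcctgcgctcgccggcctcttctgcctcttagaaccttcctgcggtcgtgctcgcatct
Stmn1: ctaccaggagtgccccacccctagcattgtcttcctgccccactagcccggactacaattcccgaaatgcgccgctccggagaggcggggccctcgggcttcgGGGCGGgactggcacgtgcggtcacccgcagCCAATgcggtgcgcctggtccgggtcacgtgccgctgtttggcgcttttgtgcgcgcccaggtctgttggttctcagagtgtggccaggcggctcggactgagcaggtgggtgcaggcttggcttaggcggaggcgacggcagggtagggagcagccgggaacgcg
Dynll1: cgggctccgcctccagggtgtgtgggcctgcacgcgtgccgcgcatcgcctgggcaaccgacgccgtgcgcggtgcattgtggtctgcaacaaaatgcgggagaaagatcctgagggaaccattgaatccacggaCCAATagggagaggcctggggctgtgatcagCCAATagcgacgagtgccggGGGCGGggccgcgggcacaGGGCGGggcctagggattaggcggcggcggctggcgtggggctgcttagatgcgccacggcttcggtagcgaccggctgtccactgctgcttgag
Tubb5 held 1 CCAAT box and 3 GC boxes, Stmn1 1 and 1, and Dynll1 2 and 2, and none of the windows held TATAAA. Of 33469 rat promoter windows of the same length, 37.5% held CCAAT, 33.1% GGGCGG and 14.2% TATAAA. No match overlapped another. These matches are a description of the letters in the windows.

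Tubb5 lay on the positive side in every pair of 3 groups and close to 0 in SS-13BN/Mcw rats at 3 days. In SS rats at 3 days its pairs 1, 2 and 3 had log ratios of 0.37, 0.60 and 0.38, and in SS rats overnight 0.30, 0.23 and 0.47. In SS-13BN/Mcw rats at 3 days they had -0.076, -0.00047 and -0.068, and overnight 0.27, 0.25 and 0.60. All 3 pairs of SS-13BN/Mcw at 3 days lay below each of the other 9 pairs. The values of the other 3 groups overlapped.

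In order of the means, Tubb5 stood at 0.45 ± 0.13 in SS at 3 days, 0.38 ± 0.20 in SS-13BN/Mcw overnight, 0.33 ± 0.13 in SS overnight and last, for SS-13BN/Mcw at 3 days, -0.048 ± 0.042 (SD, n = 3 each). Neighbours among the first 3 in this order differed by less than their spread. Of 883 probes tested in SS at 3 days 20 had a higher mean, and 54 of 1100 did in SS-13BN/Mcw overnight. The probe passed the limma threshold (adjusted p under 0.05) in these 2 groups, where 0.34% and 10.5% of the probes tested passed in either direction. These calls are part of how the gene was chosen, and nothing is read from them. By direction, the SS-13BN/Mcw overnight calls were 3.18% positive and 7.36% negative. In the SS overnight group 1.14% of 1139 probes passed, and at 3 days in SS-13BN/Mcw 2.98% of 907 did (2.32% on the negative side), without Tubb5.

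**Figure D1:**
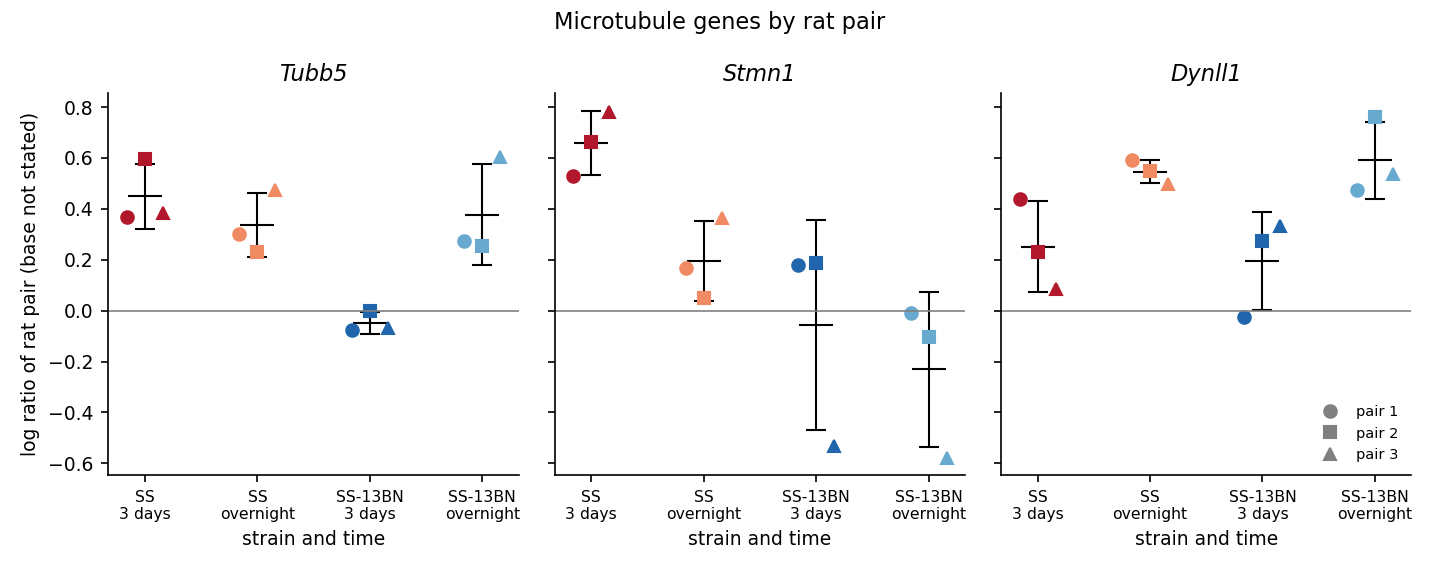
Log ratio of each rat pair (vertical axis, deposited units, base not stated) for Tubb5, Stmn1 and Dynll1 in the 4 strain and time groups. Points are pairs 1 to 3, the long dash is the mean and bars are ± SD (n = 3). Tubb5 is near 0 in SS-13BN/Mcw at 3 days (-0.048 ± 0.042), Stmn1 is highest in SS at 3 days (0.66 ± 0.13), and Dynll1 is higher overnight than at 3 days in both strains.

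For Tubb5 the strains lay apart at 3 days and overlapped overnight. SS minus SS-13BN/Mcw was 0.50 ± 0.12 at 3 days (SE) and -0.042 ± 0.12 overnight (SE). Between times, 3 days minus overnight was 0.11 ± 0.12 in SS (SE) and -0.43 ± 0.12 in SS-13BN/Mcw (SE). The SEs of these time differences take all pairs as independent, although pairs of the same number share a rat, as set out below. Both of the larger differences rest on the same 3 pairs, those of SS-13BN/Mcw at 3 days, and the difference between the strain contrasts of both times was not tested. In limma 0 probes (0%) passed in any of these 4 comparisons, of 824, 1053, 880 and 897 tested, with 69, 53, 17 and 101 at an unadjusted p under 0.05. With arrays scaled to one spread 7 probes passed for the strain difference at 3 days, Tubb5 among them, but it passed in no other setting. The gene was chosen with these differences known, so nothing is read from this call.

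Stmn1 had the widest range of the 3 genes. In SS rats at 3 days its pairs had 0.53, 0.66 and 0.78, all higher than any other Stmn1 value. In SS rats overnight they had 0.17, 0.050 and 0.36. In SS-13BN/Mcw rats at 3 days pairs 1 and 2 stood at 0.18 and 0.19 and pair 3 at -0.53, and overnight they stood at -0.010, -0.10 and -0.58. Overnight every SS pair was positive and every SS-13BN/Mcw pair negative.

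The Stmn1 means ran in the order 0.66 ± 0.13 in SS at 3 days, 0.19 ± 0.16 in SS overnight, -0.056 ± 0.41 in SS-13BN/Mcw at 3 days and -0.23 ± 0.30 in SS-13BN/Mcw overnight (SD, n = 3 each). Beyond the first step, neighbours in this order differed by less than the larger SD. In SS at 3 days 5 of 883 probes had a higher mean. Stmn1 was not among the 3 probes that passed there. Nor did it pass with values as deposited, in a fit of that group alone, with all 3 pairs required or when any 1 pair was left out. It did pass once the shared low-numbered rat was a block (5 probes in all) and with arrays scaled to one spread (9 probes). After quantile normalization (16 probes) and in an array-level fit (38 probes) it also passed. The gene was chosen for its distance from 0 in this group, so nothing is read from these calls.

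SS minus SS-13BN/Mcw for Stmn1 was 0.71 ± 0.20 at 3 days (SE) and 0.43 ± 0.20 overnight (SE). In the array-level fit 7 of 824 probes passed for the strain difference at 3 days, Stmn1 among them, but it passed in no other setting. Nothing is read from this call, since Stmn1 was chosen with these differences known. In SS rats 3 days minus overnight was 0.46 ± 0.20 (SE), and 5 of 880 probes had a larger positive difference. The choice of Stmn1 for its distance from 0 in SS at 3 days enters this rank, so nothing is read from it. In SS-13BN/Mcw rats 3 days minus overnight was 0.17 ± 0.20 (SE). As for Tubb5, the SEs of these time differences leave out the shared rats. Pair 3 of SS-13BN/Mcw decided much of the low side of this gene. Without it the group mean was 0.18 at 3 days and -0.057 overnight, and the strain difference 0.48 at 3 days and 0.25 overnight.

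Rats 1 to 3 of a strain are named in the titles of both times, so a pair at 3 days and the pair of the same number overnight share a rat. The high-numbered rat of a pair differed between the times, so differences between such pairs do not follow a rat over time. Rat 3 of SS-13BN/Mcw is in both pairs with the lowest Stmn1 values, -0.53 at 3 days and -0.58 overnight, while the pairs of rats 1 and 2 lay between -0.10 and 0.19. Set against the overnight pair with the same shared rat, Stmn1 was higher at 3 days in 3 of 3 SS pairs, by 0.36 to 0.61. It was also higher in 3 of 3 SS-13BN/Mcw pairs, by 0.045 to 0.29. The mean of these differences was 0.46 ± 0.13 in SS and 0.17 ± 0.12 in SS-13BN/Mcw (SD, n = 3 each). Dynll1 ran the other way, lower in all 6 pairs at 3 days than in the overnight pair with the same shared rat. The means were -0.30 ± 0.13 in SS and -0.40 ± 0.17 in SS-13BN/Mcw (SD, n = 3 each). Tubb5 was lower at 3 days in 3 of 3 SS-13BN/Mcw pairs so matched (-0.43 ± 0.22), and its differences were of mixed sign in SS (0.11 ± 0.23).

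**Figure D2:**
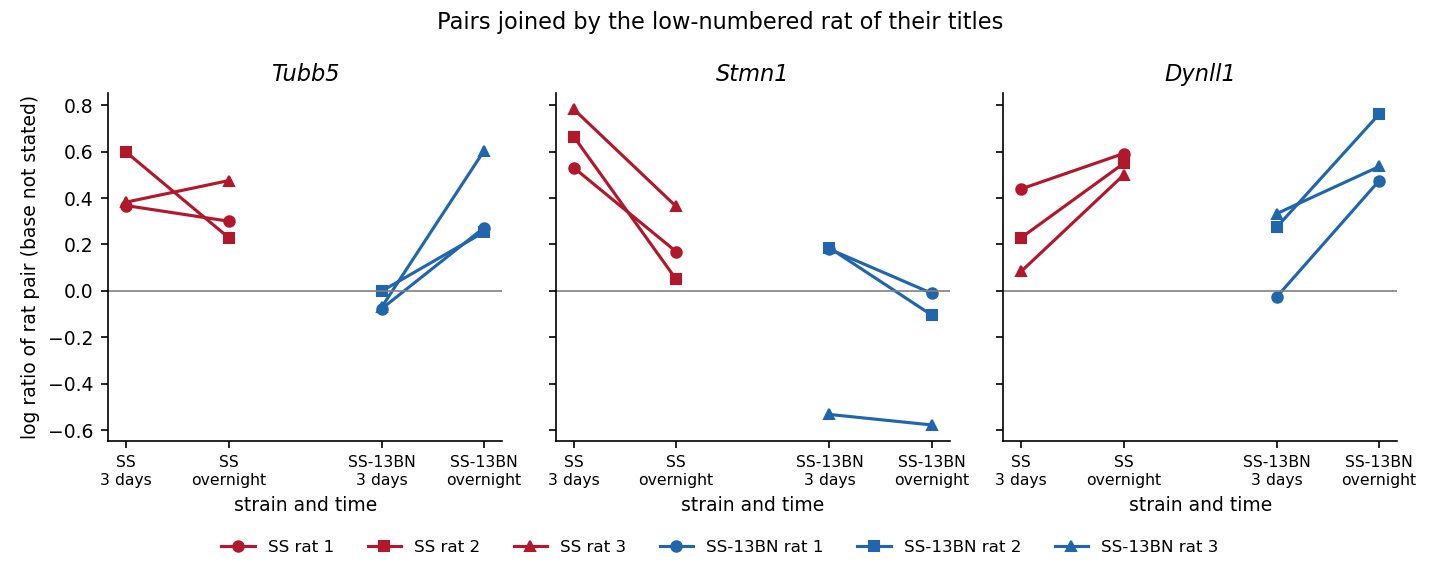
Log ratio of each rat pair (vertical axis, deposited units) at 3 days and overnight, with a line joining the pairs that share the low-numbered rat of the titles. The high-numbered rats differ between the times. All 6 Stmn1 lines are higher at 3 days and all 6 Dynll1 lines lower. The Stmn1 line of rat 3 of SS-13BN/Mcw runs from -0.53 to -0.58.

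Dynll1 was on the positive side in 11 of 12 pairs and highest overnight in both strains. In SS rats at 3 days its pairs had 0.44, 0.23 and 0.084, and overnight 0.59, 0.55 and 0.50. In SS-13BN/Mcw rats at 3 days they had -0.025, 0.28 and 0.33, and overnight 0.47, 0.76 and 0.54. Each overnight pair lay above each 3-day pair, in both strains, and the strains overlapped at either time.

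The Dynll1 means were 0.59 ± 0.15 in SS-13BN/Mcw overnight, 0.55 ± 0.046 in SS overnight, 0.25 ± 0.18 in SS at 3 days and 0.19 ± 0.19 in SS-13BN/Mcw at 3 days (SD, n = 3 each). Of these neighbours only SS overnight and SS at 3 days differed by more than the larger SD. The probe was among those that passed in both overnight groups, where 1.14% of probes passed in SS and 10.5% in SS-13BN/Mcw in either direction. In SS overnight 19 of 1139 probes had a higher mean, and 17 of 1100 did in SS-13BN/Mcw overnight. As for Tubb5, these calls are part of how the gene was chosen, and nothing is read from them. SS minus SS-13BN/Mcw was 0.057 ± 0.12 at 3 days and -0.044 ± 0.13 overnight (SE each). Between times, 3 days minus overnight was -0.30 ± 0.13 in SS and -0.40 ± 0.13 in SS-13BN/Mcw (SE each, with the shared rats left out). Without pair 1 of SS-13BN/Mcw at 3 days that group's mean was 0.30 in place of 0.19, and without pair 1 of SS at 3 days that mean was 0.16 in place of 0.25.

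Each pair value is the mean of 2 arrays with the dyes exchanged, and for all 3 genes these arrays stood far apart in a fixed direction. Tubb5 was higher with the low-numbered rat in Cy5 in 12 of 12 pairs, by 0.26 to 1.38 and on average by 0.68 ± 0.32 (SD, n = 12). Stmn1 was higher in that orientation in 12 of 12 pairs, by 0.69 ± 0.17. Dynll1 was lower in that orientation in 12 of 12 pairs, with a mean difference of -0.45 ± 0.14. Of 701 probes with a value on every array, 35 had a larger difference in size than Tubb5, 31 than Stmn1 and 131 than Dynll1, and the median size was 0.24.

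The Tubb5 arrays show the size of this gap. For Tubb5 in SS at 3 days the arrays with the low-numbered rat in Cy5 gave 0.82, 1.03 and 0.82, and their swapped arrays -0.083, 0.17 and -0.059. In SS-13BN/Mcw at 3 days they gave 0.61, 0.42 and 0.066, and their swapped arrays -0.77, -0.42 and -0.20. An offset of equal size and opposite sign in the 2 orientations cancels in the mean of a pair and in differences between groups. With either orientation alone the strain difference of Tubb5 at 3 days moved by less than the spread of its pairs, and so did that of Stmn1.

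**Figure D3:**
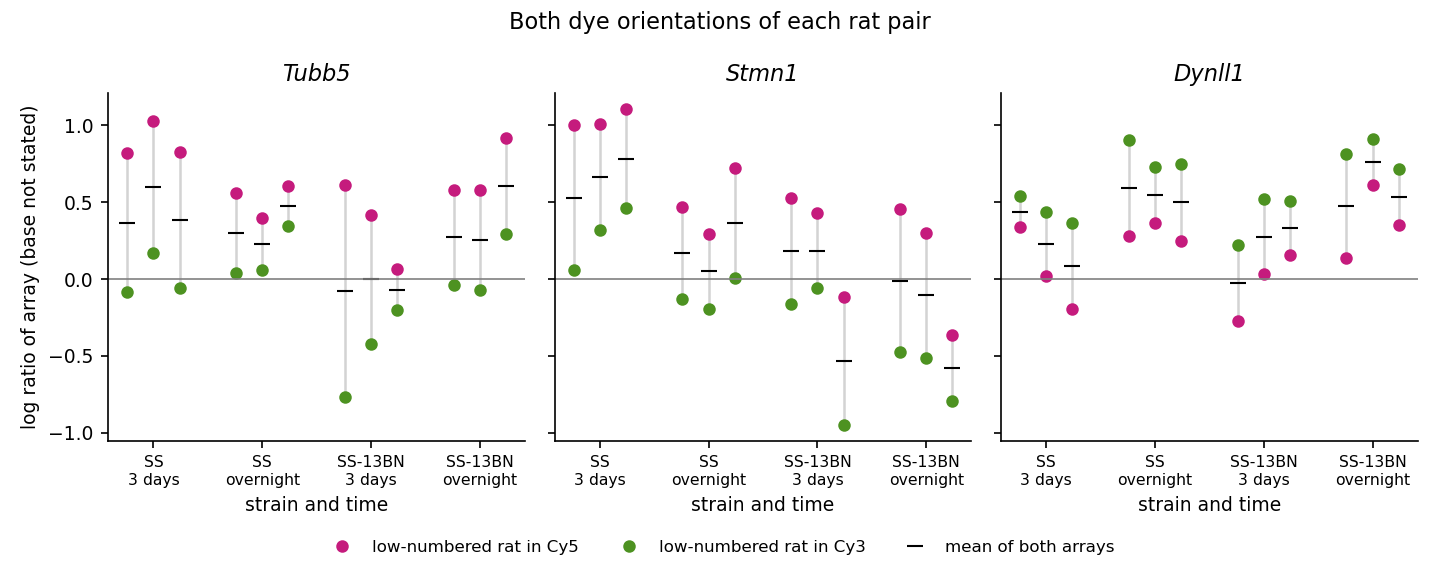
Log ratio of every array (vertical axis, deposited units) for the 3 genes, with both arrays of a pair joined by a grey line. Pink points have the low-numbered rat in Cy5, green points have it in Cy3, and the black dash is their mean. Pink lies above green in 12 of 12 pairs for Tubb5 and Stmn1 and below it in 12 of 12 for Dynll1.

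As a set, the 3 genes did not share a profile over the 12 pairs more closely than many other probes did. Likeness was measured as the root mean square difference of the 12 pair values, in log-ratio units, among 700 other probes with a value in every pair. Tubb5 and Dynll1 differed by 0.28, and 65 probes lay closer to Tubb5 than Dynll1 did. Seen from Dynll1, Tubb5 held place 33 among the 700 probes, so both were nearer to each other than to most probes. Tubb5 and Stmn1 differed by 0.43, and Stmn1 and Dynll1 by 0.59, against a median over all probes of 0.39 for Tubb5, 0.47 for Stmn1 and 0.48 for Dynll1.

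The named genes nearest to Tubb5 were Calr, the endoplasmic reticulum chaperone calreticulin (0.15), Ywhah, an adaptor protein that binds phosphorylated partners (0.17), Mllt3, a chromatin reader (0.20), Slc12a2, a sodium-potassium-chloride cotransporter (0.22), and Pfn1, the actin-binding profilin (0.22). Ywhah shared the low value of SS-13BN/Mcw at 3 days, with a mean of 0.059 there and 0.41 overnight. Slc12a2 had -0.050 and 0.25, and Calr 0.16 and 0.26. Genes picked by nearness follow the group values of a member by construction, here and for the genes named next. The nearest to Dynll1 were Tmsb10, which binds actin monomers (0.16), Ywhah again (0.18), the metallothionein Mt2A (0.19), Ggcx, the vitamin K-dependent carboxylase (0.21), and the transcriptional regulator Tsc22d1 (0.21). Stmn1 had no neighbour as close. Its nearest were the peroxidase Gpx1 (0.32), the basement membrane gene Nid1 (0.33), the dUTP-hydrolysing enzyme Dut (0.33), the chaperone Erp29 (0.34) and the clathrin adaptor subunit Ap2s1 (0.34). Gpx1 had group means of 0.15 in SS at 3 days, 0.057 in SS overnight, -0.029 in SS-13BN/Mcw at 3 days and -0.18 in SS-13BN/Mcw overnight, the same order as Stmn1 over a smaller range.

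Taken as lists, other genes of the microtubule system had medians near 0, although single genes lay further out. Of 137 genes in 5 lists (tubulins and their cofactors, microtubule-associated proteins, motors, partners of Dynll1 and tubulin chaperonins) 19 had a value on the array, none of them another tubulin. Of those tested, 4 of 12 were positive in SS at 3 days, 6 of 13 in SS overnight, 4 of 13 in SS-13BN/Mcw at 3 days and 5 of 14 in SS-13BN/Mcw overnight. Their medians were -0.033, -0.00019, -0.052 and -0.059 in that order of groups, beside -0.0054, 0.0071, -0.0030 and -0.0016 over all probes tested. None passed in limma on the positive side in any group, where 0.34%, 0.966%, 0.662% and 3.18% of all probes did. On the negative side 1 of 14 passed, in SS-13BN/Mcw overnight, where 7.36% of all probes did, so these counts do not set the lists apart from other probes.

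The gene that passed was Map1lc3b, which encodes a light chain first found on microtubules and used as a coat protein of autophagosomes. In SS-13BN/Mcw overnight its pairs had -0.28, -0.37 and -0.36, with a mean of -0.34 ± 0.053 (SD, n = 3, limma adjusted p = 0.0453). In SS-13BN/Mcw at 3 days it stood at -0.29 ± 0.22 (limma adjusted p = 0.141), in SS overnight at -0.14 ± 0.23 and in SS at 3 days at 0.031 ± 0.10. The call in SS-13BN/Mcw overnight was lost with values as deposited, with arrays scaled to one spread, after quantile normalization, when this group was fitted alone and without any 1 of its pairs. Mapt, which encodes the microtubule-binding protein tau, lay on the same side in SS-13BN/Mcw overnight, at -0.29 ± 0.17 (SD, n = 3, limma adjusted p = 0.108).

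Of the motor genes, which include the other subunits of dynein, 8 had a value on the array. None of those tested passed, a count too small to read against the 0.34% to 10.5% of all probes that passed. Pafah1b1, a regulator of dynein, stood at 0.21 ± 0.047 in SS-13BN/Mcw overnight (SD, n = 3, limma adjusted p = 0.12), and Kif1c, a kinesin that carries vesicles, at 0.18 ± 0.10 in SS-13BN/Mcw at 3 days (SD, n = 3, limma adjusted p = 0.209). The kinesin light chain Klc1 stood at -0.20 ± 0.074 in SS-13BN/Mcw overnight (SD, n = 3, limma adjusted p = 0.219). Other subunits of dynein and dynactin with at least 2 overnight pairs had overnight means between -0.11 and 0.095, beside 0.55 and 0.59 for Dynll1. Since Dynll1 was chosen with its values known, nothing is read from this contrast. The light chain Dynlt1 had a value in 1 pair alone, 0.35 in pair 2 of SS-13BN/Mcw overnight, and was not tested. The intermediate chain Dync1i2 had means of 0.095 ± 0.16 in SS and 0.085 ± 0.15 in SS-13BN/Mcw, Dync1i1 0.037 ± 0.15 and -0.051 ± 0.12, the light chain Dynlrb1 -0.11 ± 0.11 and -0.090 ± 0.093 (2 pairs in SS-13BN/Mcw), and the dynactin subunit Dctn1 -0.046 ± 0.42 and -0.067 ± 0.13. Among partners of Dynll1, the kinase Pak1 stood at -0.14 ± 0.38 in SS at 3 days (2 pairs) and -0.13 ± 0.54 in SS overnight. Tcp1, a subunit of the chaperonin that folds tubulin, stood at 0.11 ± 0.051 in SS at 3 days and -0.092 ± 0.13 in SS-13BN/Mcw at 3 days.

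**Figure D4:**
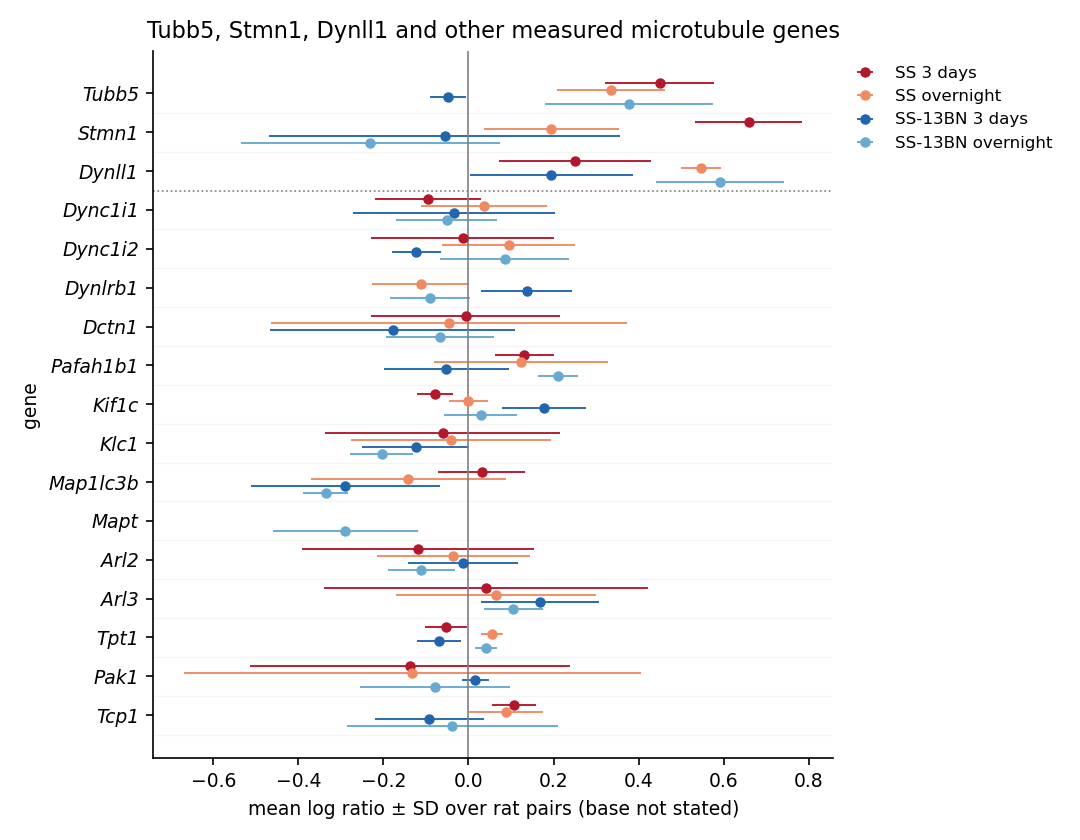
Mean log ratio ± SD over rat pairs (horizontal axis, deposited units) of Tubb5, Stmn1 and Dynll1 (above the dotted line) and of 14 other microtubule genes with at least 2 measured pairs in a group. The means of the other genes lie between -0.34 and 0.21, while the 3 genes reach 0.45, 0.66 and 0.59. The 3 genes were chosen with these values known, so nothing is read from this contrast.

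Markers of other cell types moved in the same pairs. Fibroblast and matrix genes, with 5 or 6 genes measured in all pairs of a group, had pair means of 0.30 to 1.04 in SS at 3 days, 0.43 to 0.97 in SS overnight, -0.048 to 0.031 in SS-13BN/Mcw at 3 days and 0.34 to 0.84 in SS-13BN/Mcw overnight. SS-13BN/Mcw at 3 days was thus the group near 0 for this list as it was for Tubb5. Col1a1, a fibrillar collagen chain, had group means of 1.10, 0.95, 0.025 and 0.70 in that order. Within SS at 3 days the order differed, since the list was highest in pair 1 (1.04) and Tubb5 in pair 2 (0.60). Other lists were low there too or ran otherwise. In SS at 3 days, SS overnight, SS-13BN/Mcw at 3 days and SS-13BN/Mcw overnight, injured tubule genes had medians of 0.28, 0.35, 0.044 and 0.29. Those of smooth muscle genes were -0.019, 0.094, 0.073 and 0.32. The part of these lists in the Tubb5 values was not tested.

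Actin cytoskeleton genes were mostly positive, 10 of 11 in SS at 3 days, 10 of 11 in SS overnight, 7 of 10 in SS-13BN/Mcw at 3 days and 10 of 11 in SS-13BN/Mcw overnight, with medians of 0.17, 0.25, 0.11 and 0.31. Tmsb10, the nearest gene to Dynll1 above, had means of 0.33, 0.39, 0.18 and 0.46 in the same order. Proximal tubule markers were negative in 12 of 13, 13 of 14, 12 of 13 and 13 of 14 genes, with medians of -0.65, -0.59, -1.05 and -1.34. Their part in the values of the 3 microtubule genes was not tested.

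Of 24 genes of dividing cells, the setting in which stathmin is best known, 6 had a value on the array and 2 a value in all 12 pairs. Pcna, the sliding clamp of DNA replication, had means of 0.22 ± 0.17 in SS at 3 days, 0.25 ± 0.17 in SS overnight, 0.12 ± 0.15 in SS-13BN/Mcw at 3 days and 0.32 ± 0.058 in SS-13BN/Mcw overnight. Ccnd1, the cyclin of early cell cycle entry, had -0.11 ± 0.32, -0.25 ± 0.095, 0.037 ± 0.15 and -0.36 ± 0.070. The group order of both differed from that of Stmn1, which was highest in SS at 3 days and lowest in SS-13BN/Mcw overnight. With 2 of 24 genes the list is hardly covered, and the part of dividing cells in the Stmn1 values was not tested.

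**Figure D5:**
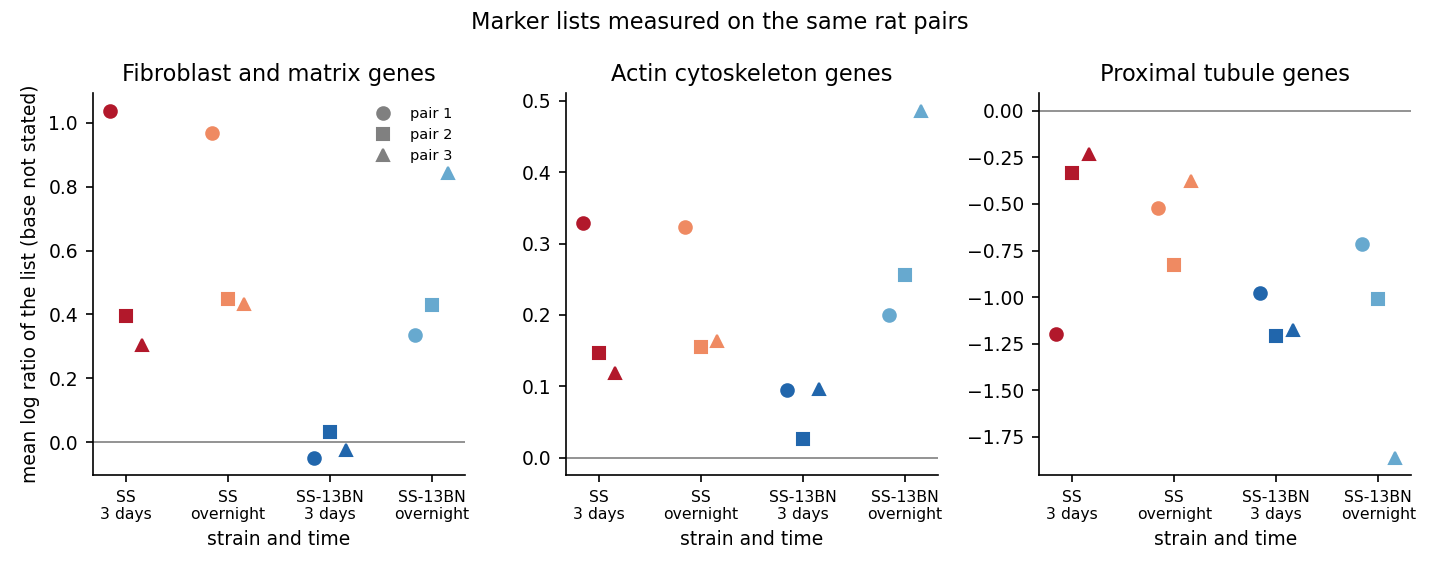
Mean log ratio of 3 marker lists in each rat pair (vertical axes, deposited units, different scales). Fibroblast and matrix genes are near 0 in SS-13BN/Mcw at 3 days (-0.048 to 0.031) and positive elsewhere, actin cytoskeleton genes are positive in all pairs, and proximal tubule genes are negative in all pairs.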

How the data were processed

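Total RNA of rat kidney was measured on 24 cDNA arrays with Cy5 and Cy3 channels. Per the values of the deposited table, each array holds 1 log ratio per probe and was centred on its mean (largest absolute mean 0.000822). The sources used here do not give the log base, the numerator or earlier steps. Of 3742 probe identifiers 1766 had a value, 1426 of them with 1 symbol, 29 with several and 311 with none, from the platform annotation updated through gene numbers.

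Array medians were set to 0 and the dye-swapped arrays of each pair averaged. Arrays were not turned by dye: once the part common to an orientation was taken out, r between swapped arrays lay above 0 for 12 of 12 pairs, at 0.169 to 0.825. With that part left in, as in the values used here, r between swapped arrays ran from -0.059 to 0.749. The lowest r between arrays of the same orientation was 0.115, and 0 arrays were identical. The replicate is the rat pair, numbered by its low-numbered rat in the titles.

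limma fitted 1 coefficient per group over 12 pairs (8 residual degrees of freedom), with eBayes, two-sided tests and Benjamini-Hochberg adjustment at 0.05, on probes with at least 2 of 3 pairs in each group compared, and was tested on simulated data. The members and lists were chosen with earlier results of these data known. Named were the 3 genes, listed genes that passed, otherwise up to 3 per list by smallest p, the 5 genes nearest to each member, and up to 3 genes per marker list. Dynein and dynactin subunits and Mapt were named after their values were seen. The titles give the same low-numbered rats to both times of a strain. Deviations from the group mean correlated between times, for pairs with the same low-numbered rat, at r of 0.436, -0.053 and 0.616 in SS. In SS-13BN/Mcw r was 0.362, 0.290 and 0.269. Software was R 4.3.3, limma 3.58.1, statmod 1.5.0, Python 3.11.15 and matplotlib 3.10.9.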

Additional observations from a re-analysis of the deposited data

Results flagged for a closer look

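Some differences were flagged because every pair of a group lay on the opposite side of 0 from every pair of the other. Only the 3 genes and the other listed microtubule genes were looked at in this way. The share of all probes with such a split was not counted. Tubb5 did so for SS minus SS-13BN/Mcw at 3 days (0.50) and for 3 days minus overnight in SS-13BN/Mcw (-0.43), although pair 2 of SS-13BN/Mcw at 3 days stood at -0.00047 and its side of 0 has no weight. Stmn1 did so for SS minus SS-13BN/Mcw overnight (0.43), where pair 1 of SS-13BN/Mcw stood at -0.010. Among other microtubule genes, Tcp1 did so for SS minus SS-13BN/Mcw at 3 days (0.20), where pair 1 of SS-13BN/Mcw stood at -0.0068. Tpt1, a tubulin-binding protein abundant in most cells, did so for 3 days minus overnight in SS-13BN/Mcw (-0.11). Its overnight pairs there lay close to 0, at 0.018 to 0.069. These signs were not tested, and 0 probes passed the limma test of any of these differences, with 69, 101 and 53 at an unadjusted p under 0.05 for the strain difference at 3 days, the time difference in SS-13BN/Mcw and the strain difference overnight.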

How the results depend on the processing

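Most of the 12 group values and 12 differences of the 3 genes moved by less than the spread between pairs with values as deposited, with arrays scaled to one spread, after quantile normalization, with a block for the low-numbered rat and without any 1 pair. The exception was Tubb5 in SS-13BN/Mcw at 3 days, at -0.0060 after quantile normalization. The replicate block left the estimates as they were (Tubb5 in SS at 3 days 0.45) and changed 1 call among the 3 genes, that of Stmn1 in SS at 3 days. Tubb5 did not pass in SS at 3 days without pair 1 or pair 2, in a fit of that group alone or with all 3 pairs required, nor in SS-13BN/Mcw overnight without pair 3. Dynll1 did not pass in SS overnight without any 1 of its pairs, and in SS-13BN/Mcw overnight neither gene passed in a fit of that group alone. Scaling arrays to one spread, or quantile normalization, let Tubb5 pass in SS overnight.

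Using a single dye orientation moved most group values. With the low-numbered rat in Cy5 alone Tubb5 was 0.89, 0.52, 0.37 and 0.69 in SS at 3 days, SS overnight, SS-13BN/Mcw at 3 days and SS-13BN/Mcw overnight, and in the other orientation 0.0086, 0.15, -0.46 and 0.062. Stmn1 was 1.04 and 0.49 in SS at 3 days and overnight and 0.13 in SS-13BN/Mcw overnight, and in the other orientation 0.28, -0.11 and -0.59. Dynll1 was 0.055, 0.30, -0.028 and 0.37, and in the other orientation 0.45, 0.80, 0.42 and 0.81. Tubb5 for 3 days minus overnight in SS was 0.37 and -0.14.

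Turned by dye, as if ratios were Cy5 over Cy3, Tubb5 was -0.44, -0.19, -0.41 and -0.31 in the 4 groups, Stmn1 -0.38 and -0.30 in SS at 3 days and overnight, and Dynll1 0.25 and 0.22 in the SS and SS-13BN/Mcw overnight groups. SS minus SS-13BN/Mcw at 3 days was then -0.026 for Tubb5 and -0.045 for Stmn1, and overnight 0.063 for Stmn1. For 3 days minus overnight Tubb5 was -0.25 in SS and -0.10 in SS-13BN/Mcw, Stmn1 -0.079 in SS, and Dynll1 -0.053 in SS and 0.00013 in SS-13BN/Mcw. This setting takes the difference of swapped arrays in place of their mean. Other microtubule genes that passed then numbered 6, 3, 6 and 5 in the 4 groups, where 344 of 883, 325 of 1139, 299 of 907 and 309 of 1100 probes passed.

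The 1 other microtubule gene that passed, in SS-13BN/Mcw overnight, became 0 with values as deposited, with arrays scaled to one spread, after quantile normalization, in a fit of the group alone and without any 1 of its pairs (0 in each), and 2 in an array-level fit. Here and above the cause was not tested. Removing the part shared by an orientation left the values of the 3 genes as they were, by construction. The spread of 3 pairs a group limits all comparisons.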
